A study of Cicer arietinum with 4 samples.

Results

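Of the 28783 genes measured by RNA sequencing in chickpea (*Cicer arietinum*) ovules, 74 were abundant before fertilization and stood moderately lower after it. They were chosen by their measured FPKM values in the 4 libraries. A gene was taken if its identifier begins with LOC, its span is at least 300 bp, both pre-fertilization libraries are at 50 FPKM or more, and the higher post-fertilization library is at most 0.5 but above 0.167 of the lower pre-fertilization library. FPKM, the authors' deposited unit, divides the fragments of a gene by transcript length and by the library's mapped fragments. The choice fixes that these genes are lower after fertilization, so the size of their fall is a description and has no test.

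Ovules after fertilization came from half-opened flowers (libraries post A and post B), and ovules before fertilization from closed buds (libraries pre A and pre B). All 4 libraries are total RNA of cultivar ICC4958. The letters follow the endings of the column names and pair nothing, and nothing in the labels says whether the 2 libraries of a group came from separate plants. Flower stage and fertilization differ together between the groups and cannot be told apart.

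An ovule holds the female gametophyte with the egg cell inside protective coats, the integuments. When pollen tubes deliver sperm, the egg and the central cell are fertilized, the embryo and the endosperm begin to grow, and the integuments turn into the seed coat. Transcripts stored in or made by the unfertilized ovule can then be diluted, degraded or no longer made, and bulk RNA cannot tell fewer cells of a type from less RNA per cell.

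The rule takes only LOC identifiers, so it fixes that none of the 74 genes carries a gene symbol in the deposited data. By gene number 72 were matched to a RefSeq gene table, which also gives each only its LOC identifier. No product name is used here, so what most of these genes encode is not stated. RefSeq lists 70 as protein-coding (94.6%, against 98.2% of the 1877 other abundant genes) and 2 as long non-coding RNAs, LOC113786595 and LOC101515581. The 2 that were not matched are LOC101507444 and LOC101497395. The marker genes listed for ovule, pollen and green tissue have no symbol in the table, so the labelled tissue was not checked by markers.

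Among genes that do have a symbol, 39 met the same floor and span, and 0 met the rest of the rule. Of the 1951 LOC genes at that floor and span 3.79% did, so a count of 0 in 39 is not read as a difference. The nearest was LHY, a morning-phased factor of the circadian clock, with 27.5 and 40.7 FPKM in the post-fertilization libraries, against 73.3 and 69.7 FPKM in the pre-fertilization libraries. Its higher post-fertilization library was at 0.585 of its lower pre-fertilization library. Next came HIS2A, with a ratio of 0.755, and RS3A, a ribosomal protein gene, with a ratio of 0.820.

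After fertilization the 74 genes stood lower in the ranking of 26792 LOC genes by level than before it, with the last of them at place 9828 (post A) and 11823 (post B), against 1991 (pre A) and 1963 (pre B). Their median level in FPKM was 29.6 (post A) and 24.5 (post B), against 81.1 FPKM in pre A and 83.2 FPKM in pre B. Single genes ranged from 10.2 to 364.9 FPKM in post A and from 7.02 to 212.7 FPKM in post B, against 51.4 to 872.8 FPKM in pre A and 51.7 to 861.8 FPKM in pre B. Only 17 of them still reached 50 FPKM in post A and 6 in post B. In that ranking, over LOC genes of the same minimum span, their median place fell to 4150 (post A) and 5197 (post B), against 1146 (pre A) and 1113 (pre B). As a share of the summed FPKM of those genes they made up 0.511% in post A and 0.404% in post B, against 1.59% in pre A and 1.63% in pre B.

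**Figure D1:**
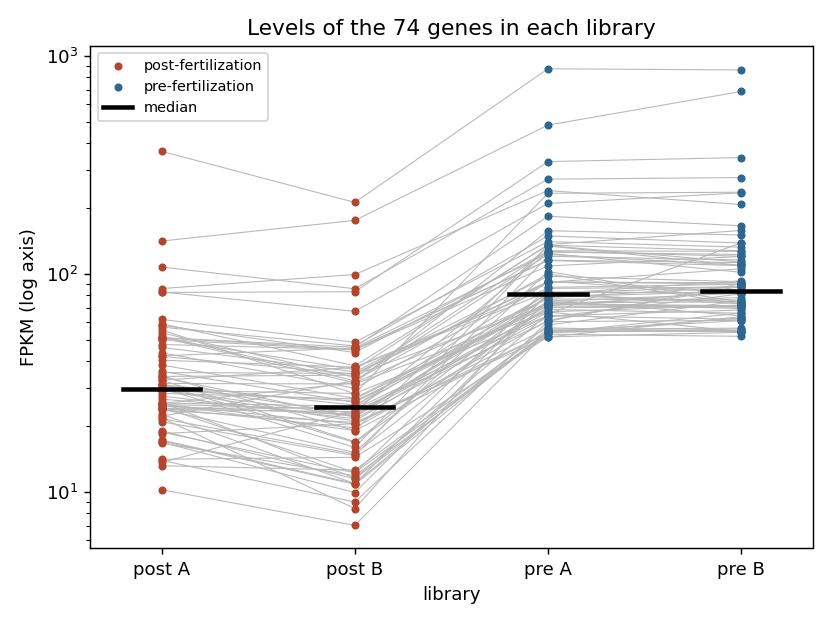
FPKM of each of the 74 genes in the 4 libraries, on a log axis, with a grey line per gene and a black bar at the median of each library. The medians are 29.6 FPKM (post A), 24.5 FPKM (post B), 81.1 FPKM (pre A) and 83.2 FPKM (pre B).

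The mean after fertilization was 2.10-fold to 6.63-fold lower, with a median of 2.95-fold. In 39 genes it was under 3-fold lower, in 16 from 3-fold to 4-fold, in 8 from 4-fold to 5-fold and in 11 at least 5-fold. On the log2(FPKM + 1) scale the median change, post minus pre, was -1.56, while it was -0.09 over the 1877 other abundant genes and 0.02 over the 17849 genes tested. All 74 were called lower by limma at an adjusted p threshold of 0.05, where 15.5% of the tested genes were. The rule used the same contrast, so nothing is read from that count. The median change of the 74 was -1.58 without pre A and -1.55 without pre B.

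LOC101510491 had the highest level. This protein-coding gene on chromosome 5 (47961471 to 47962121 in the deposited table, whose genome build is not stated) was at 364.9 and 212.7 FPKM after fertilization, against 872.8 and 861.8 FPKM before. Its mean was 289 ± 108 FPKM after fertilization and 867 ± 7.79 FPKM before (SD, n = 2 each), 3.003-fold lower. The pre-fertilization libraries lay within 1.01-fold of each other and the post-fertilization libraries 1.72-fold apart. It was the 27th gene of 26792 in pre A.

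LOC101507444, on chromosome 6 (58272213 to 58273271), was at 141.5 and 176.0 FPKM after fertilization, against 481.5 and 686.8 FPKM before. It is 1 of the 12 genes in which post B was above post A, and its pre-fertilization libraries were 1.43-fold apart. LOC101512695, on chromosome 3 (19488092 to 19492269), gave close pairs in both groups, at 82.2 and 82.8 FPKM after fertilization and 327.4 and 341.7 FPKM before. The mean of LOC101512695 was 4.05-fold lower after fertilization.

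The next in level, LOC101493118 on chromosome 1 (3642964 to 3651451), has 9 transcripts in the RefSeq table, the most of the 72 matched genes. It was at 107.4 and 85.5 FPKM after fertilization, against 272.1 and 276.6 FPKM before. LOC101490232, on chromosome 8 (5487888 to 5489928), was at 55.3 and 28.2 FPKM after fertilization, against 234.3 and 236.9 FPKM before. With a mean 5.64-fold lower, it is in both the group of highest levels and the group of deepest falls. Its post-fertilization libraries differed 1.96-fold and its pre-fertilization libraries 1.01-fold.

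LOC101495690, on chromosome 1 (6125229 to 6127094), was at 85.6 and 99.3 FPKM after fertilization, against 241.1 and 208.1 FPKM before. LOC101508977, on chromosome 4 (17343495 to 17346597), was at 82.6 and 67.3 FPKM after fertilization, against 210.5 and 235.5 FPKM before. LOC101490010, on chromosome 7 (38662985 to 38669880), was at 51.0 and 46.1 FPKM after fertilization, against 183.7 and 166.2 FPKM before. The means of these 3 genes were 2.43-fold, 2.98-fold and 3.604-fold lower in that order.

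The deepest fall was that of LOC101504357, on chromosome 4 (1281666 to 1285143), at 21.0 and 14.7 FPKM after fertilization, against 120.4 and 115.8 FPKM before. Its mean was 17.8 ± 4.44 FPKM after fertilization and 118 ± 3.27 FPKM before (SD, n = 2 each), 6.63-fold lower. LOC101488692, on chromosome 2 (3450546 to 3452041), was at 10.2 and 7.02 FPKM after fertilization, against 54.6 and 54.4 FPKM before. It ended at the lowest level of all 74 genes in both post-fertilization libraries. LOC101496763, on chromosome 4 (45592655 to 45596577), was at 18.8 and 12.2 FPKM after fertilization, against 86.7 and 89.6 FPKM before, 5.69-fold lower.

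LOC101500209 is the least certain of the deep falls. This gene on chromosome 4 (11722934 to 11725110) was at 25.7 and 11.6 FPKM after fertilization, against 65.5 and 138.8 FPKM before. Its libraries differed 2.23-fold after fertilization and 2.12-fold before, the widest pre-fertilization gap of the 74 genes and the only one above 1.5-fold. The change on the log2 scale was -2.40 with all libraries, -1.86 without pre B and -2.93 without pre A.

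At the shallow end, LOC101502778 on chromosome 6 (30279184 to 30285163) was at 33.8 and 34.3 FPKM after fertilization, against 72.3 and 70.8 FPKM before, 2.10-fold lower. LOC101508669, on chromosome 4 (41124179 to 41127411), was at 31.4 and 31.3 FPKM after fertilization, against 67.0 and 71.8 FPKM before. Both pairs of LOC101508669 were tight, with the post-fertilization libraries within 1.005-fold of each other. LOC101510380, on chromosome 4 (45778791 to 45785674), and LOC101511705, on chromosome 1 (18036087 to 18044867), were 2.23-fold and 2.30-fold lower.

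**Figure D2:**
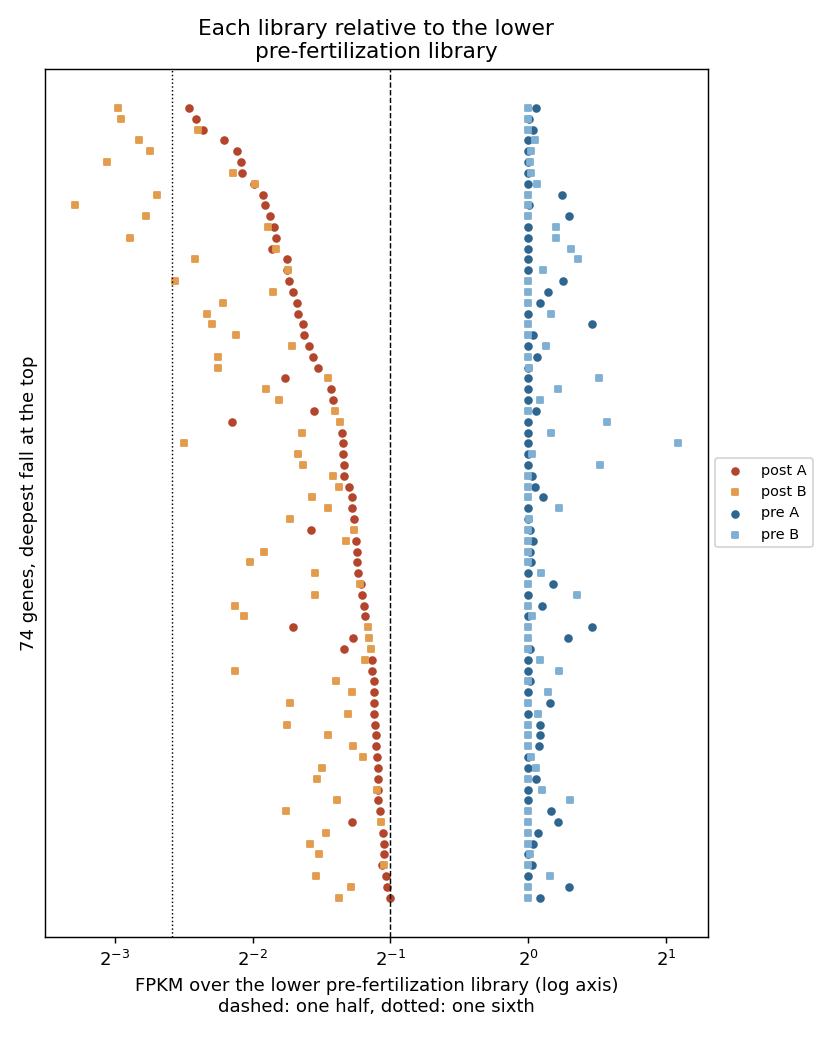
FPKM of each library divided by the lower pre-fertilization library of the same gene, on a log axis, 1 row per gene with the deepest fall at the top; the dashed and dotted lines mark the limits of the rule at 0.5 and 0.167. Post B lies left of post A in 62 of the 74 genes and is left of the dotted line in 9.

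The limits of the rule cut through a continuous range of values. LOC101507516 was just inside the upper limit, its higher post-fertilization library being at 0.4999 of its lower pre-fertilization library, and LOC101506222 followed at 0.490. LOC101495436 and LOC101511081 were just outside, at 0.502 and 0.506. At the lower limit LOC101504357 and LOC101488692 were inside at 0.181 and 0.188, and LOC101503357 and LOC101495075 outside at 0.137 and 0.103. At the floor, LOC101500609 and LOC101504007 were kept with lower pre-fertilization libraries of 51.36 and 51.40 FPKM, and LOC101509772 and LOC101511502 were left out at 49.38 and 49.36 FPKM. The shortest genes kept were LOC101493531, at 454 bp, and LOC101490833, at 618 bp. LOC113787412, at 196 bp, was left out by its span.

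Among the 1951 abundant LOC genes, those at or above the floor, falls of this size were uncommon. The 74 genes are 3.79% of them, and 6 more were at or below 0.167. Both post-fertilization libraries were below both pre-fertilization libraries in 912 abundant genes (46.7%; 36.4% of all tested genes), mostly by less than the rule asks. In 601 both were above, and in 71 the lower post-fertilization library was at least 2 times the higher pre-fertilization library. Turning the rule round, 231 of the 2113 LOC genes with at least 50 FPKM in both post-fertilization libraries stood as much lower before fertilization, which is 10.9%.

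**Figure D3:**
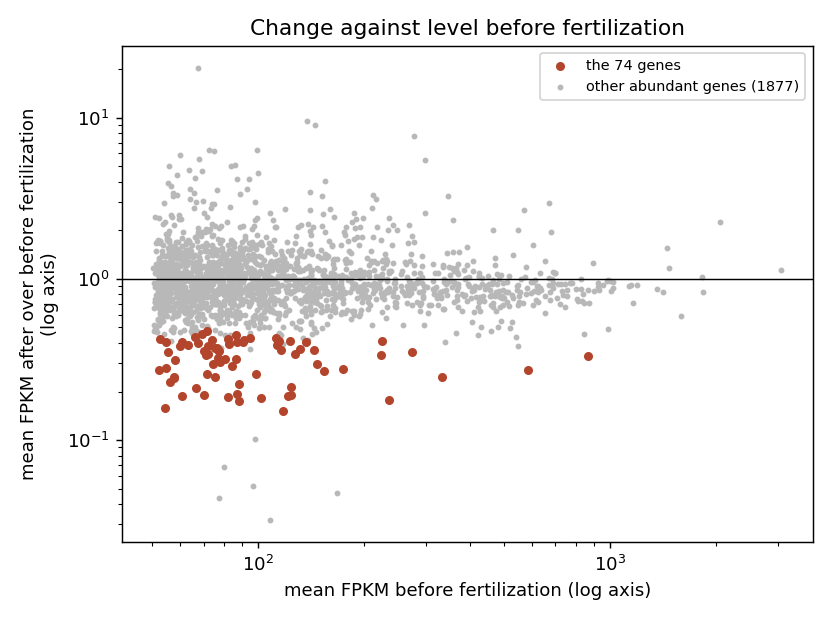
Mean FPKM after fertilization divided by the mean before, against the mean before fertilization, both on log axes, for the 74 genes and the 1877 other abundant genes. The 74 genes lie between 0.151 and 0.477 and run from the floor up to a mean of 867 FPKM.

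Across the 74 genes Spearman's rho between the pre-fertilization mean and the ratio of means was -0.05 (Pearson's r of log2 values -0.05). The rule sets a floor for the level and bounds the ratio. So neither rho nor the medians below can show whether depth of fall follows level among abundant genes at large. Genes are not independent replicates, all points share the same libraries, and no test is attached. The median fold was 2.93 in the 27 genes with a mean of 50 to 75 FPKM before fertilization, 2.95 in 22 genes at 75 to 100 FPKM, 2.85 in 18 genes at 100 to 200 FPKM and 3.003 in 7 genes at 200 FPKM or more. The share of abundant genes that met the rule was lowest at the top: 1.79% of the 391 genes at 200 FPKM or more, against 3.92%, 5.64% and 3.74% in the lower 3 classes taken upwards.

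The order of the 74 genes by level was less alike between the groups than within them. Spearman's rho of the 74 levels was 0.862 between the post-fertilization libraries and 0.883 between the pre-fertilization libraries. The 4 pairs across groups gave 0.649 (post B with pre B) to 0.773 (post A with pre A). Over the other abundant genes, which span a wider range of levels, it was 0.964 between the post-fertilization libraries and 0.975 between the pre-fertilization libraries. Between the groups it was 0.785 to 0.832, so their order was also less alike there. The rule ties the post-fertilization level of the 74 to their pre-fertilization level. Their rho between the groups is therefore not independent of the choice, and no test is attached.

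The post-fertilization libraries were farther apart than the pre-fertilization ones. The median gap, the higher over the lower library, was 1.30-fold after fertilization and 1.06-fold before, and 23 genes had a post-fertilization gap above 1.5-fold where 1 had such a gap before. Of the other abundant genes 5.97% had a post-fertilization gap above 1.5-fold, with a median of 1.14-fold, and their median pre-fertilization gap was also 1.06-fold. Of all tested genes, whose median level was lower, 18.2% had a post-fertilization gap above 1.5-fold, against 31.1% of the 74. For the pre-fertilization gap these shares were 9.99% and 1.35%. The rule limits the higher post-fertilization library and leaves the lower one free, so the gap is not independent of the choice, and no test is attached. Deeper falls came with wider gaps: Spearman's rho between the ratio of means and the post-fertilization gap was -0.48 over 74 genes, which share the post-fertilization libraries in both measures.

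Post B was the lower library in 62 of the 74 genes (83.8%), against 71.8% of the other abundant genes and 50.9% of all tested genes. Before fertilization pre B was the lower in 38 (51.4%), against 50.5% of the other abundant genes and 53.9% of all tested genes. The widest gap was in LOC101490971, on chromosome 1 (11000127 to 11001541), at 21.9 FPKM in post A and 8.39 FPKM in post B, against 82.2 and 82.0 FPKM before. Its change on the log2 scale was -2.50 with all libraries, -1.86 without post B and -3.15 without post A. LOC101498274, on chromosome 4 (38709058 to 38712057), was at 22.7 FPKM in post A and 10.9 FPKM in post B, against 80.9 and 92.9 FPKM before. In 9 genes post B alone was below 0.167 of the lower pre-fertilization library.

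In 12 genes post B was above post A. LOC101493531, on chromosome 5 (30829100 to 30829553), was at 13.6 FPKM in post A and 23.5 FPKM in post B, against 60.6 and 90.2 FPKM before, and was the most raised in post B relative to post A. The long non-coding LOC113786595, on chromosome 5 (16878832 to 16879571), was at 22.2 and 32.4 FPKM after fertilization, against 99.97 and 72.7 FPKM before. Between the pre-fertilization libraries, LOC101503583 on chromosome 8 (3813679 to 3815163) had the third widest pre-fertilization gap of the 74 genes, 1.44-fold, at 24.2 and 19.7 FPKM after fertilization, against 61.1 and 87.8 FPKM before.

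Over all 17849 tested genes, Pearson's correlation of log2(FPKM + 1) with the pre-fertilization libraries was 0.858 and 0.858 for post A and 0.812 and 0.813 for post B, so post B was the farther from them in general. Relative depth, from the value of 1 fragment on genes under 0.3 FPKM, relative to pre A was 1.01 (post A), 1.11 (post B) and 0.551 (pre B). The part of these differences in the results was not tested. None of the 74 genes was listed at 0 in any library.

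Short genes made up a larger share of the 74 than of other abundant genes, a difference that was not tested. The median span was 3109 bp (454 to 9204 bp), against 3470 bp in the other abundant genes, and 12 of 74 (16.2%) spanned under 1000 bp, against 6.98%. Put the other way, 8.39% of the 143 abundant genes under 1000 bp met the rule, and 3.34% to 3.63% in each longer class. Among the 74, the longest genes fell least. The median fold was 3.08 under 1000 bp, 3.39 from 1000 to 3000 bp, 2.84 from 3000 to 5000 bp and 2.48 above. Spearman's rho between span and the ratio of means was 0.357 (Pearson's r of log2 values 0.271, n = 74). The other abundant genes did not share this order. Their median log2 fold change was 0.009 under 1000 bp and -0.16 above 5000 bp, with -0.08 and -0.06 in the classes between. The rule bounds the ratio, so the order among the 74 cannot show whether depth of fall follows span among abundant genes at large. Span includes introns and is not the transcript length. The value of 1 fragment relative to pre A was 0.993 (post A) and 0.901 (post B) both under 1000 bp and from 3000 to 10000 bp. For pre B it was 1.82 under 1000 bp and 1.83 from 3000 to 10000 bp. Gene length largely cancels in this ratio, so it could hardly vary with span and is no check on an effect of length.

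Annotation of the 74 genes was mostly simple. RefSeq lists a single transcript for 60 of the 72 matched genes (83.3%), against 80.0% of the other abundant genes. The gene length in the RefSeq table, which is of another assembly, was within 10% of the deposited span in 64 of 72 (88.9%, against 94.1%). It was 0.394 of the deposited span for LOC101497048 and 1.59 times it for LOC101493531.

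The 74 genes lay on all 8 chromosomes, with 6 on unplaced sequences. Chromosome 6 held 17, chromosome 4 held 14 and chromosome 7 held 12, while chromosome 8 held 2, chromosome 2 held 3 and chromosome 3 held 4. In relation to abundant genes, 5.60% on chromosome 4, 5.15% on chromosome 6 and 5.04% on chromosome 7 met the rule, and 1.56% on chromosome 8, 1.83% on chromosome 2 and 1.83% on chromosome 3. With 74 genes these shares rest on few genes each, and no test of the difference was made.

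**Figure D4:**
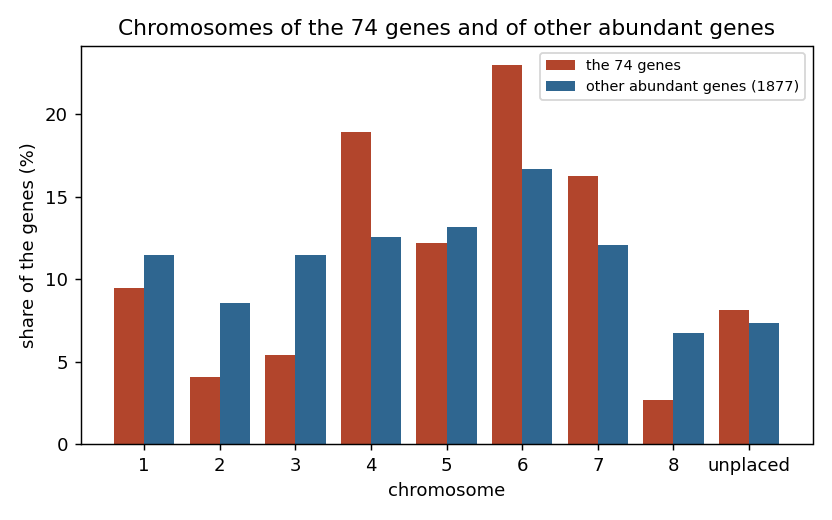
Share of the 74 genes and of the 1877 other abundant genes on each chromosome and on unplaced sequences, in percent. Chromosome 6 holds 23.0% of the 74 genes and 16.7% of the others, and chromosome 8 holds 2.70% and 6.71%.

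The genes next to the 74 were not used in choosing them, but they were measured in the same libraries and some overlap a member. Of the genes directly before or after a member, other members left out, 107 were tested. The 74 were also left out of the neighbours of other abundant genes, while the shares of all tested genes include them. In 12 of them (11.2%) both post-fertilization libraries were at most 0.5 of both pre-fertilization libraries, against 4.58% of 2576 tested neighbours of other abundant genes and 4.93% of all tested genes. Limma called 23 of the 107 lower (21.5%) and 18 higher (16.8%), against 16.5% lower and 21.4% higher among neighbours of other abundant genes and 15.5% lower and 21.0% higher among all tested genes. The median log2 fold change of the neighbours was -0.08, against 0.004 for the neighbours of other abundant genes. No test of these differences was made.

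**Figure D5:**
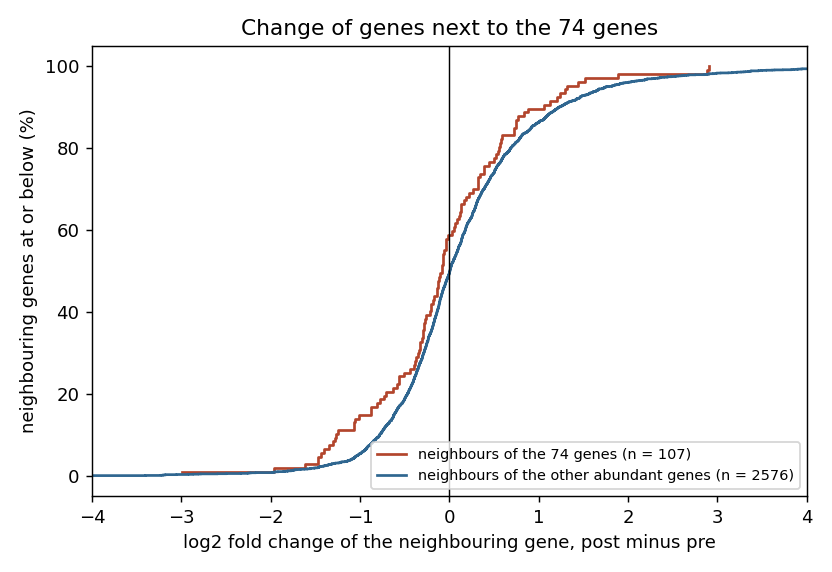
Cumulative share of tested neighbouring genes by log2 fold change, post minus pre, for neighbours of the 74 genes (n = 107) and of other abundant genes (n = 2576); a few values lie beyond the axis. The median is -0.08 for neighbours of the 74 genes and 0.004 for neighbours of other abundant genes.

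Of these 12 neighbours, 1 overlaps a member in position. LOC101498420, next to LOC101499398, fell most, at 1.204 and 0.464 FPKM after fertilization, against 12.6 and 14.1 FPKM before (limma adjusted p = 0.00389). Whether neighbouring genes are similar enough in sequence to share reads was not examined.

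A stretch of chromosome 7 from 957020 to 990805 held 5 consecutive genes that were all lower. LOC101498105 (968829 to 973468) was at 17.1 and 10.8 FPKM after fertilization, against 54.5 and 61.0 FPKM before. LOC101497452 (979286 to 982890) was at 13.2 and 12.6 FPKM after fertilization, against 55.7 and 56.4 FPKM before. Those are the 2 members of the stretch, 5817 bp apart, the closest pair of the 74 genes.

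The gene between them, LOC101497783, was at 5.06 and 3.34 FPKM after fertilization, against 15.2 and 14.4 FPKM before (log2 fold change -1.62, limma adjusted p = 0.00809). LOC101498440, beyond the pair, was at 9.71 and 6.76 FPKM after fertilization, against 37.7 and 31.9 FPKM before (log2 fold change -1.97, limma adjusted p = 0.00553). LOC101497116, on the other side, was at 14.2 and 11.4 FPKM after fertilization, against 24.7 and 23.8 FPKM before (log2 fold change -0.88, limma adjusted p = 0.0142). The stretch was picked out after its values were seen.

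On chromosome 6, LOC101490833, LOC101493007 and LOC101495254 lie within 24255868 to 24404513 and form no such run. LOC101490833 was at 29.4 and 26.1 FPKM after fertilization, against 71.3 and 83.3 FPKM before. LOC101493007 was at 32.5 and 17.0 FPKM after fertilization, against 79.8 and 74.4 FPKM before. LOC101495254 was at 19.1 and 11.5 FPKM after fertilization, against 54.8 and 54.9 FPKM before. Of the 9 other tested genes between and beside them, 2 were at most 0.5 of the pre-fertilization level (LOC101491156 and LOC101493661). LOC101494606 rose, with 36.9 and 45.6 FPKM after fertilization, against 11.1 and 14.1 FPKM before (limma adjusted p = 0.00594).

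On an unplaced sequence, LOC101496425 and LOC101497403 lie 23480 bp apart with 2 genes between them. LOC101496425 was at 38.2 and 26.8 FPKM after fertilization, against 77.9 and 87.1 FPKM before. LOC101497403 was at 25.6 and 24.7 FPKM after fertilization, against 91.6 and 105.5 FPKM before. The genes between were not lower: LOC101496757 was at 8.19 and 6.13 FPKM after fertilization, against 2.98 and 2.78 FPKM before (limma adjusted p = 0.0167).

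In all, 4 of the 74 genes (5.41%) overlap another gene in position, against 4.79% of the other abundant genes. LOC101508977 overlaps 2 small nucleolar RNA genes and LOC101515581 overlaps 3; small nucleolar RNAs guide chemical changes to other RNAs and are often cut from introns of a host transcript. LOC101515581 is a long non-coding RNA on chromosome 6 (9676933 to 9678937) and was at 25.2 and 20.5 FPKM after fertilization, against 53.6 and 66.1 FPKM before. Of the 3 small nucleolar RNA genes that overlap it, LOC113787376 (81 bp) was at 299.3 and 598.8 FPKM after fertilization, against 0 and 945.7 FPKM before. LOC113787439 (76 bp) was at 0 and 527.2 FPKM after fertilization, against 860.8 and 0 FPKM before. Libraries of the same group thus disagreed for these short genes both before and after fertilization. LOC101507142 overlaps LOC113787596, which was listed at 0 and at 0.528 FPKM after fertilization, against 2.31 and 2.01 FPKM before. LOC101503965 overlaps LOC113787161, which was under 1 FPKM in all 4 libraries. Without knowledge of strand in the counting, the reads of overlapping genes cannot be told apart.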

How the data were processed

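Total RNA of ovules was sequenced on an Illumina platform with paired reads, per the labels' protocols. The authors deposited 1 table of FPKM values. Cufflinks, Cuffdiff, HISAT2, fastp and FastQC are named in the submitters' processing notes. Tool versions, the genome build and scaling across libraries are not stated there. Absolute depth is unknown, so no counting interval is given. The column names give each library's group but not its replicate number.

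The members and lists were chosen with earlier results of these data known. The 17849 genes that reached 1 FPKM in 2 libraries or more were fitted as log2(FPKM + 1) with group as the one term (limma 3.58.1, R 4.3.3, variance trend). Its two-sided p-values had a Benjamini-Hochberg adjustment over all these genes, and calls were made at 0.05. The p-values measure the spread between these libraries, which may be technical. The code of the fit was tried on simulated data with a single spread for all genes, set below the fitted spread. Such data are easier than the real libraries, so the trial does not measure power or error here. Folds are ratios of mean FPKM.

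Members named are the 8 highest before fertilization, the 5 deepest and 5 shallowest falls, the 3 widest gaps per group and those at a limit of the rule. Members close to each other, unmatched, non-coding or overlapping another gene were named after their values were seen, as were neighbours and genes with a symbol. Chromosome numbers are those most genes of a sequence carry in RefSeq (Cicar.CDCFrontier_v2.0), whose coordinates were not used. The planned lists by product name and the planned sequence features could not be made. Alternatives were other pseudocounts, filters, scalings and rule limits, no variance trend, and leaving out each library.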

Additional observations from a re-analysis of the deposited data

How the results depend on the processing

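No paired analysis was possible because the columns carry no replicate number of the labels. The count of 74 genes called lower comes from the contrast that chose them, so its stability is no support. It was 74 under every change of pseudocount, filter, scaling and variance trend and without either post-fertilization library. Without a pre-fertilization library 15 to 19 were called, while 0.426% to 0.569% of all genes then were, so few genes pass at all when the spread comes from the post-fertilization pair. The median log2 fold change of the 74 was -1.56, -1.78 with quantile normalization, which moved the median of all tested genes from 0.02 to -0.14, and -1.72 to -1.37 when a library was left out. The number of genes that meet the rule was 117 with quantile normalization (73 of the 74 among them), 160 with a floor of 25 FPKM, 24 with a floor of 100 FPKM and 124 with group means (72 of the 74 among them). In an alternative chosen after seeing the data, it was 81 to 141 when a library was left out, with 141 without post A (65 of the 74 among them) and 81 without post B. No named gene changed direction, which the choice of genes fixes for libraries left out, pseudocounts and filters. Neighbours at most 0.5 of the pre-fertilization level numbered 8 to 18 under the alternatives, also chosen after seeing the data. Their share was above that near other abundant genes in each. As a ratio of the shares, the excess was smallest with quantile normalization (12.1% against 7.22%) and with no filter (11.9% against 7.06%). By the same ratio it was largest with a filter of 5 FPKM (9.30% against 3.44%). Depth was lowest in pre B, and its part in the results was not tested.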
